A study of Mus musculus with 16 samples.

Results

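The MEK inhibitor GDC-0623, given without the CD40 agonist antibody, was compared with its vehicle in B16-OVA tumors. The comparison takes the 4 tumors labelled MEKi+control IgG (MEKi below) and the 4 labelled Vehicle+control IgG (control), which are 8 of the 16 tumors of the series, and all 45037 probe sets that are not array controls. B16-OVA is a mouse melanoma cell line that expresses ovalbumin, a foreign antigen that T cells can recognise. The cells grew in Matrigel under the skin of C57BL/6-Ly5.1 mice that were 6 to 12 weeks old. MEKi mice received GDC-0623 at 30 mg/kg and control mice the vehicle MCT, once a day for about 2 weeks. Both groups also received the control immunoglobulin, on days 3, 5 and 7 of treatment and again 1 day before the tumors were analysed, so no group was free of injected antibody. The tumors were taken on day 18 after inoculation from separate mice, with 1 array per tumor. The model has limits that the labels show: a single transplanted line stands for the tumor, and the RNA is that of homogenised tumor tissue, so tumor cells and host cells are measured together.

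The MEK kinases, encoded by Map2k1 and Map2k2, phosphorylate ERK, the last kinase of the RAS-RAF-MEK-ERK cascade that drives growth in most melanomas. Active ERK induces feedback inhibitors of the Dusp, Spry and Spred families and growth genes such as Ccnd1 and Etv5, and these transcripts are commonly read as the output of the pathway. Interferon gamma, which activated T cells and NK cells release, acts on tumor and host cells through JAK kinases and STAT factors. It induces GTPases that attack intracellular parasites, chemokines that attract T cells, and the machinery that presents peptides on MHC molecules.

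Values are log2 signals, so that a difference of 1 is a 2-fold change, and a negative difference means a lower signal in MEKi tumors. No probe set passed an adjusted p under 0.05 in limma, that is 0 of 45037 (0.0%) in either direction. At an unadjusted p under 0.05, 1613 probe sets (3.58%) were higher and 1497 (3.32%) lower, 6.91% together, and the groups did not overlap for 2.35% in the higher and 1.68% in the lower direction. The smallest adjusted p was 0.0538, shared by Itga4 and Mocos, and the median SE of a difference was 0.103. The number of arrays, 4 per group, limits this precision. With 1 probe set for each of 18193 genes, 672 genes (3.69%) were higher and 766 (4.21%) lower at an unadjusted p under 0.05, 7.9% together, and 0 of 18193 (0.0%) passed in either direction with the p adjusted over all probe sets. All MEKi tumors lay above all controls for 453 genes (2.49%) and below all controls for 383 (2.11%). The counts given for each gene list below are to be read beside these shares of all genes. Because nothing passed the adjusted test, the differences below are given as values with their SE, and no gene is said to have risen or fallen.

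The sizes of the differences were unequal between the directions. By 1 or more, 194 genes were lower and 27 higher. By 2 or more, 48 were lower and 0 higher, and by 3 or more, 12 were lower and 0 higher. Of the 194 lower genes, 91 had groups that did not overlap and 180 stayed at this size without MEKi tumor 3. Of the 27 higher genes, the groups did not overlap for 1, the chemokine scavenging receptor Ackr3, and 4 stayed at this size without MEKi tumor 3. Ackr3 read 6.52, 6.20, 5.46 and 6.41 in controls and 6.78, 6.76, 10.12 and 7.49 in MEKi tumors, so that MEKi tumor 3 stood far above the rest. The median difference over all 18193 genes was 0.01.

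**Figure D1:**
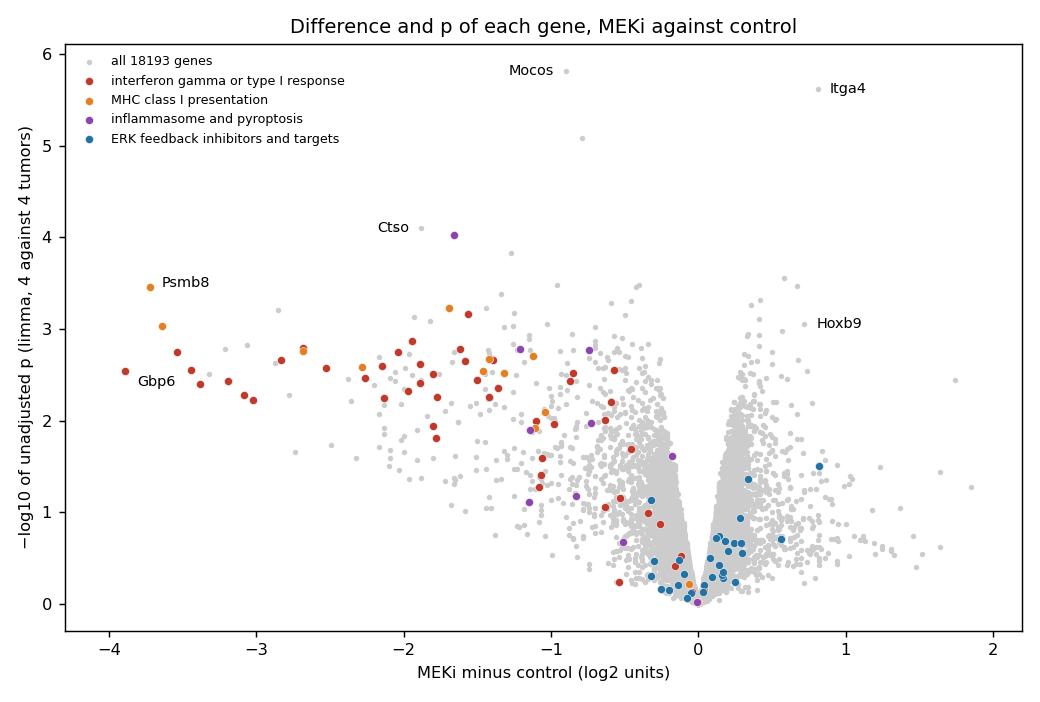
Each point is 1 of 18193 genes, with the difference between MEKi and control tumors in log2 units on the horizontal axis and the negative log10 of the unadjusted limma p on the vertical axis. Interferon, MHC class I and inflammasome genes spread to the left, down to −3.89 for Gbp6, ERK feedback inhibitors and targets lie around 0, and Mocos and Itga4 stand highest.

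Some tumors read high for genes that mark other cell types. The mean of 17 fibroblast and matrix genes was 11.15 in MEKi tumor 3 against 8.01 to 9.02 in the other MEKi tumors and 8.22 to 8.91 in controls. The same tumor had the lowest endothelial mean of the 8 tumors, 6.30, and the source of its matrix transcripts was not tested. The mean of 14 skeletal muscle genes was 5.52 in MEKi tumor 2 against 4.58 to 4.88 in the other MEKi tumors and 4.61 to 4.64 in controls. The melanocyte enzyme Tyrp1 was near the top of the scale in every tumor, at 14.26 to 14.35 in controls and 14.31 to 14.44 in MEKi tumors, as the labelled melanoma requires. Signals below 4.94, the 95th percentile of 44 olfactory receptor probe sets, are treated as background. In bulk tumors, fewer cells of a type and less RNA per cell cannot be told apart.

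Genes of the interferon gamma response were lower on average. All 21 measured members of this list were lower on average in MEKi tumors, with a median of −2.04 beside 0.01 over all genes. Of the 21, 16 had every MEKi tumor below every control and 16 had an unadjusted p under 0.05, beside 2.11% and 4.21% of all genes, and 0 passed the adjusted test. The mean of the list was 8.61, 8.64, 10.20 and 9.58 in control tumors 1 to 4 and 8.28, 6.51, 6.20 and 7.84 in MEKi tumors 1 to 4. The groups did not overlap, but control tumors 1 and 2 and MEKi tumor 1 lay within a narrow band, while MEKi tumors 2 and 3 lay far below it. Without any 1 tumor the median stayed between −2.40 and −1.70, and the count of members with separate groups was 16 or 17.

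The guanylate-binding proteins and immunity-related GTPases, which attack the membranes around intracellular microbes, led the list. Gbp6 read 9.62, 10.11, 12.49 and 11.38 in controls and 9.02, 5.74, 4.83 and 8.45 in MEKi tumors. Its mean was 14.8-fold lower, a difference of −3.89 (SE 0.97, adjusted p = 0.57 in limma). MEKi tumor 3 reached the background level, and MEKi tumor 1 lay nearest to the lowest control. Gbp2 read 10.75, 10.91, 12.93 and 12.16 in controls and 10.40, 7.18, 6.19 and 9.45 in MEKi tumors, a difference of −3.38 (SE 0.89). The immunity-related GTPase Igtp read 11.32, 11.46, 13.25 and 12.60 in controls and 10.75, 8.04, 6.83 and 10.24 in MEKi tumors, a difference of −3.19 (SE 0.83). In all of these the same tumors were low, MEKi 2 and 3, and the same were high, control 3 and 4. The other GTPases of these families that the rule named differed by −3.44 (Iigp1, SE 0.86), −3.32 (Ifi47, SE 0.84), −3.21 (Gbp8, SE 0.74, with a MEKi mean of 4.33, below background), −3.02 (Gbp7, SE 0.85), −2.83 (Irgm2, SE 0.68) and −2.68 (Gbp3, SE 0.61), each with separate groups. The related gene Gm4951 differed by −3.06 (SE 0.69). Guanylate-binding proteins are near copies of each other, and the probe set used for Gbp2 is of a kind that can bind several transcripts, so their separate values are uncertain.

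The transcription factors of the response followed the same tumors. Irf1, which interferon gamma induces within the first wave, read 10.11, 10.01, 11.64 and 10.81 in controls and 9.69, 7.88, 7.89 and 8.97 in MEKi tumors. The difference was −2.04 (SE 0.47), or 4.1-fold. MEKi tumor 1 was the only one within 1 log2 unit of the lowest control. Irf8, a factor of myeloid cells that interferon gamma also induces, differed by −1.77 (SE 0.49). Nlrc5, the transactivator of MHC class I genes, read 9.0, 8.99, 10.39 and 9.93 in controls and 8.53, 4.65, 4.93 and 7.89 in MEKi tumors, a difference of −3.08 (SE 0.85). MEKi tumors 2 and 3 had Nlrc5 at or under the background level. The transcript of interferon gamma itself, Ifng, was close to background in most tumors, at 4.35, 4.43, 6.43 and 4.92 in controls and 4.23, 4.43, 3.97 and 3.99 in MEKi tumors. Its difference of −0.88 (SE 0.40) passed no test, and its groups overlapped.

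The receptors and kinases that carry the interferon signal differed little. The 13 genes of this list had a median of −0.09, with 2 at an unadjusted p under 0.05, both lower. These were Stat5a, at 8.08 to 8.28 in controls and 7.66 to 7.96 in MEKi tumors (−0.36, SE 0.09), and Stat3, at 10.96 to 11.30 in controls and 10.25 to 10.97 in MEKi tumors (−0.49, SE 0.15). The kinase Jak2 differed by −0.20 (SE 0.09) and the repressor of STAT signalling Pias1 by −0.16 (SE 0.07).

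**Figure D2:**
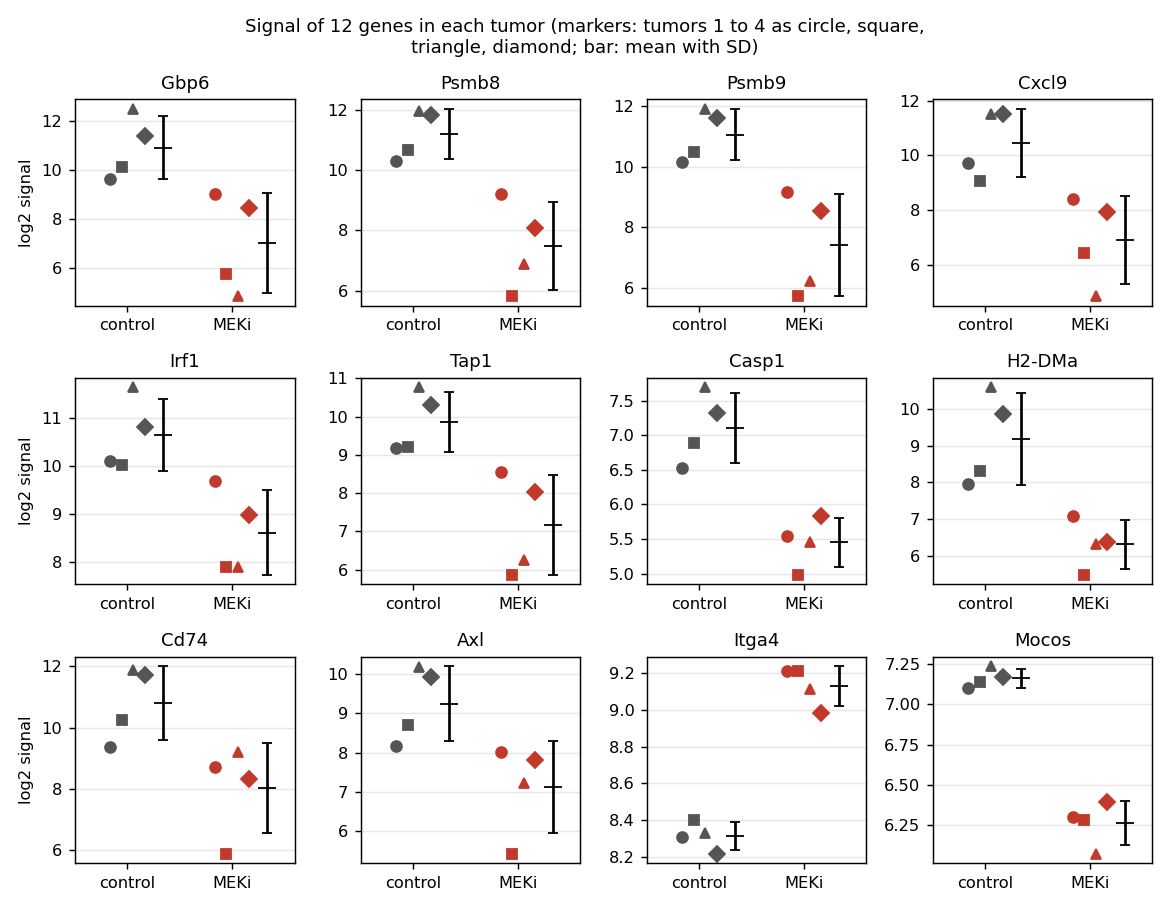
Log2 signals of 12 genes in the 4 control tumors (grey) and the 4 MEKi tumors (red), with a marker for each tumor number and a bar for the group mean with its SD. The groups are separate for all 12 genes, and the interferon genes vary by several log2 units within a group while Itga4 and Mocos vary little.

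Promoters of 3 of the leading genes are shown because they hold, in turn, the one, the other and both of the motifs known from interferon-induced genes. They run from 250 bases before to 50 after the start of the gene in RefSeq (GRCm38.p6), on the strand of the gene. Capitals mark matches to the interferon-stimulated response element, searched as a pair of GAAA runs in 1 direction with any 2 bases between, or to the gamma-activated site, TTCNNNGAA, each on both strands. The windows are those of Psmb8 (chr17:34197945-34198244, plus strand), Gbp2 (chr3:142620413-142620712, plus strand) and Igtp (chr11:58199306-58199605, plus strand).
Psmb8: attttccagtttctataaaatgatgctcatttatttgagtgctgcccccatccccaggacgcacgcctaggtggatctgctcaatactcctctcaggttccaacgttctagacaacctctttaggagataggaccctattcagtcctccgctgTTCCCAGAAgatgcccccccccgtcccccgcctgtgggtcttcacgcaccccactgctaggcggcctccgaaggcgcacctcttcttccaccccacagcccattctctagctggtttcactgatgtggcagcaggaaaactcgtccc
Gbp2: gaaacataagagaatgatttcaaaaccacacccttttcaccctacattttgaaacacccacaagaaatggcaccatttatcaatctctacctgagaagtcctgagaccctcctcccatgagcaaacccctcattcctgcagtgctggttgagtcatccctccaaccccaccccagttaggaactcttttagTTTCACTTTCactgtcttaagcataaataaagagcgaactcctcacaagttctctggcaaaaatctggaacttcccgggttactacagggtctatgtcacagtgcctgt
Igtp: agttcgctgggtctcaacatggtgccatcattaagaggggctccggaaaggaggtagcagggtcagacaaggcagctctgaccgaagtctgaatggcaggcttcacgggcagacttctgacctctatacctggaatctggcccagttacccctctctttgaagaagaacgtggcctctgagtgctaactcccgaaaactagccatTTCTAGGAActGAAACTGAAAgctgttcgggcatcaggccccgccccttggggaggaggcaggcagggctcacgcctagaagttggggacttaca
Psmb8 held 1 gamma-activated site, TTCCCAGAA, from base −97. Gbp2 held 1 response element on the minus strand, TTTCACTTTC, from base −59, and Igtp held both motifs next to each other without overlap, TTCTAGGAA from base −45 and GAAACTGAAA from base −34. The windows of Psmb9, Cxcl9 and Ifi47 were searched too and held neither motif. Cxcl9 and Gbp2 each held 1 AP-1 site (TGANTCA, also searched on both strands).

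Over all 14452 genes with a promoter window, 3.02% held the response element, 7.29% the gamma-activated site and 6.33% the AP-1 site. Of the 383 genes with all MEKi tumors below all controls, 304 had a window, and 10.2% of these held the response element, 10.5% the gamma-activated site and 5.59% the AP-1 site. Of the 453 genes with all MEKi tumors above all controls, 338 had a window, and the shares were 2.66%, 7.40% and 7.40%. In the interferon gamma list 8 of 13 windows held the response element, and in the type I list 11 of 18. The gamma-activated site was in 5 of 13 and 4 of 18, and the AP-1 site in 4 of 13 (30.8%) and 5 of 18 (27.8%), so that all these shares were above those of all genes. In the MHC class I list, which holds Psmb8, the response element was in 3 of 13 windows. The gamma-activated site was in 1 of these 13 (7.69%), near the share of all genes, and the AP-1 site in 0. In the constitutive proteasome list each motif was in 1 of 21. A match is a run of letters and not a measured binding site.

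Genes that type I interferons induce were also lower. All 27 measured members were lower on average, with a median of −1.39, and 23 had an unadjusted p under 0.05, beside 4.21% of all genes. The groups were separate for 8, beside 2.11% of all genes. Control tumor 1 was low for this list, with a mean of 7.38 against 8.13 to 8.91 in the other controls, and the MEKi tumors lay at 6.39 to 7.27. Without control tumor 1 the groups were separate for 23 of the 27, and without MEKi tumor 4 for 16. Groups separate more easily with a tumor left out, and the share over all genes is then not given, in this list or the others. Ifih1, a sensor of viral RNA, read 8.43, 9.06, 9.86 and 9.55 in controls and 8.11, 7.25, 7.33 and 7.99 in MEKi tumors (−1.56, SE 0.31). Parp14 differed by −1.94 (SE 0.43), the RNA helicase Dhx58 by −1.62 (SE 0.37) and Bst2, which tethers budding viruses, by −1.39 (SE 0.33).

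MHC class I molecules show peptides from inside the cell to cytotoxic T cells. Of the 14 measured genes of this machinery, 11 had separate groups and an unadjusted p under 0.05, all lower. The shares over all genes were 2.11% and 4.21%. The median was −1.38. Leaving out any 1 tumor kept both counts at 11. The immunoproteasome replaces the catalytic subunits of the proteasome and changes the peptides it cuts. Its subunit Psmb8 read 10.32, 10.68, 11.98 and 11.84 in controls and 9.20, 5.81, 6.87 and 8.07 in MEKi tumors, 13.2-fold lower (−3.72, SE 0.68). Psmb9 read 10.17, 10.50, 11.91 and 11.61 in controls and 9.18, 5.72, 6.22 and 8.52 in MEKi tumors, 12.4-fold lower (−3.64, SE 0.76). For both genes every MEKi tumor lay below every control, and MEKi tumors 2 and 3 were lowest.

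Peptide transport and trimming genes had smaller differences. The transporter subunit Tap1 read 9.17, 9.21, 10.76 and 10.29 in controls and 8.54, 5.86, 6.26 and 8.03 in MEKi tumors, a difference of −2.68 (SE 0.62). Its partner Tap2 differed by −2.28 (SE 0.56). Erap1, which trims peptides to the length that fits class I molecules, differed by −1.69 (SE 0.33). The heavy chains and B2m, the light chain they share, were bright in every tumor. B2m read 13.84, 14, 14.25 and 14.17 in controls and 13.66, 12.26, 12.17 and 13.73 in MEKi tumors (−1.11, SE 0.36), so the MEKi tumors formed a pair near the controls and a pair well below them. H2-K1 differed by −1.04 (SE 0.31) and H2-D1 by −1.32 (SE 0.33). Both are read by probe sets that can bind several MHC class I transcripts, so their values are uncertain. H2-M3, a class I molecule that presents formylated peptides and was not in the list, read 8.03 to 8.94 in controls and 5.48 to 6.84 in MEKi tumors (−2.06, SE 0.31). The chaperones of the same pathway differed little, by 0.04 for Calr (SE 0.10), 0.00 for Canx (SE 0.07) and −0.06 for Pdia3 (SE 0.10).

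The constitutive proteasome had small differences, nearly all negative. Of its 25 measured subunits 24 had a negative difference, with a median of −0.16 and a range from −0.34 to 0.16. At an unadjusted p under 0.05, 10 were lower, and 11 had separate groups, beside 4.21% and 2.11% of all genes. Psmb6, the catalytic subunit that Psmb9 replaces, read 11.62, 11.62, 11.67 and 11.69 in controls and 11.40, 11.34, 11.38 and 11.42 in MEKi tumors (−0.26, SE 0.06). Both groups were tight and separate. Psmb2 differed by −0.34 (SE 0.10), Psma2 by −0.24 (SE 0.08) and Psmc3 by −0.23 (SE 0.08). The ATPase subunit Psmc4 was the exception, at 11.69 to 11.98 in controls and 11.91 to 12.06 in MEKi tumors (0.16, SE 0.08). The count at an unadjusted p under 0.05 was 6 without control tumor 1, 4 without control tumor 3 and 5 without MEKi tumor 3.

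MHC class II presentation, a task of professional antigen-presenting cells, had the lowest median of all lists, −2.17 over 9 genes. At an unadjusted p under 0.05, 8 were lower, and 4 had separate groups. H2-DMa, a chaperone that loads peptide onto class II molecules, read 7.97, 8.31, 10.57 and 9.85 in controls and 7.09, 5.50, 6.33 and 6.38 in MEKi tumors (−2.85, SE 0.56). Cd74, the invariant chain, read 9.36, 10.25, 11.89 and 11.72 in controls and 8.70, 5.87, 9.20 and 8.31 in MEKi tumors (−2.78, SE 0.77). The groups were separate for both, narrowly for Cd74. H2-Ab1 itself read 8.51, 9.38, 11.29 and 10.84 in controls and 8.07, 6.24, 9.62 and 7.40 in MEKi tumors (−2.17, SE 0.77), and MEKi tumor 3 lay above control tumors 1 and 2. Without control tumor 3 or control tumor 4 the count at an unadjusted p under 0.05 was 3, and without MEKi tumor 2 it was 5. Without MEKi tumor 3 the groups were separate for 7 of the 9.

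Most leukocyte transcripts were lower on average, and their groups overlapped. The mean of 16 pan-leukocyte genes was 7.25, 7.70, 8.97 and 8.82 in controls and 7.19, 6.06, 7.83 and 6.90 in MEKi tumors. That of 17 macrophage genes was 6.86, 7.52, 8.73 and 9.04 in controls and 6.89, 5.39, 7.97 and 5.99 in MEKi tumors. In both lists MEKi tumor 3 lay above control tumors 1 and 2, although its interferon gamma mean of 6.20 was the lowest of all 8 tumors. All 16 pan-leukocyte genes were above background in at least 1 group, the median was −1.34, 11 were lower at an unadjusted p under 0.05 and 2 had separate groups. For the 17 macrophage genes, all above background too, the median was −1.51, 10 were lower at an unadjusted p under 0.05 and 0 had separate groups. Leaving out control tumor 3, control tumor 4 or MEKi tumor 2 left 4 pan-leukocyte and 6 macrophage genes, leaving out MEKi tumor 4 left 6 and 6, and leaving out MEKi tumor 3 gave 13 and 16. Separate groups numbered 8 and 5 without MEKi tumor 3, and 6 and 5 without control tumor 1. The part that leukocyte content has in the interferon and MHC differences was not tested.

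**Figure D3:**
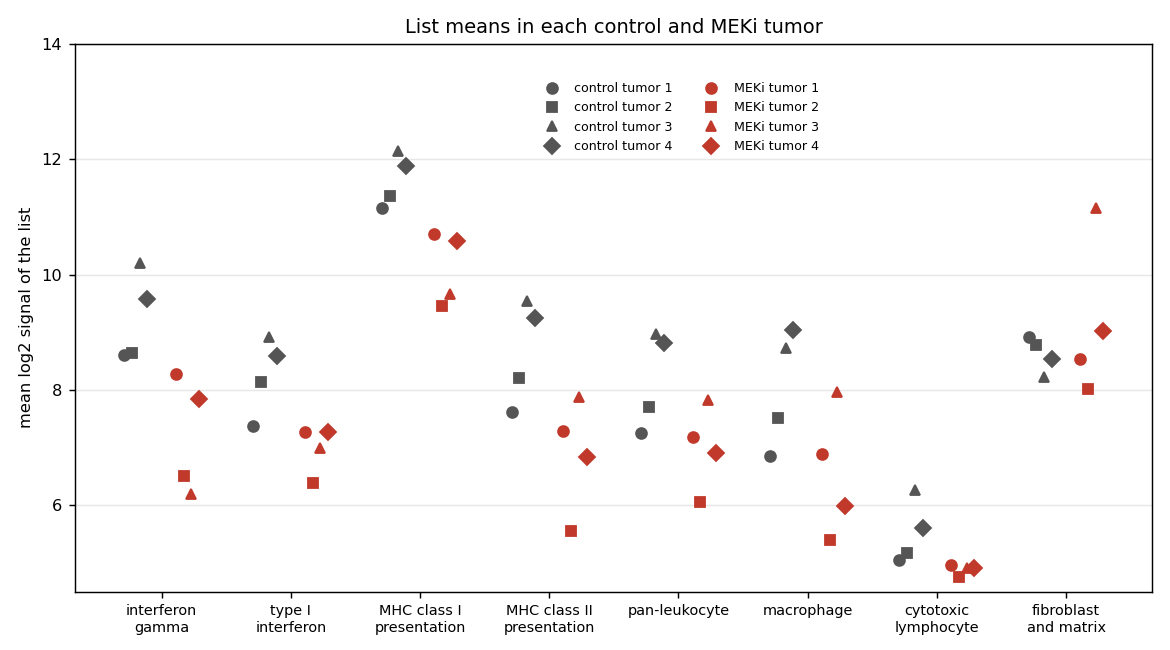
Mean log2 signal of 8 gene lists in each control tumor (grey) and each MEKi tumor (red), with 1 marker per tumor number. MEKi tumor 3 (red triangle) has the lowest interferon gamma mean, 6.20, together with a macrophage mean of 7.97 and the highest fibroblast and matrix mean, 11.15.

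The named leukocyte genes varied by several log2 units within groups. Fcgr1, a high-affinity antibody receptor of macrophages, read 6.50, 7.06, 8.29 and 8.25 in controls and 5.63, 4.37, 6.78 and 5.31 in MEKi tumors (−2.0, SE 0.54). MEKi tumor 3 was above control tumor 1. The GTPase Rac2 of blood cells differed by −1.38 (SE 0.40) and the adaptor Lcp2 by −1.20 (SE 0.37), both with separate groups, although the other probe set of Rac2 did not point the same way. Aif1, an actin-binding protein of macrophages, differed by −2.36 (SE 0.67) with a MEKi mean of 4.86, below background, and Cd68, a lysosomal protein, by −1.51 (SE 0.43). Csf1r, the receptor macrophages need to survive, read 7.92, 8.65, 9.98 and 10.14 in controls and 8.03, 6.47, 10.10 and 7.17 in MEKi tumors. Its difference of −1.23 (SE 0.77) was within the spread of the tumors. The complement list, of which macrophages make the C1q chains, had a median of −0.81 over 9 genes, with 4 lower at an unadjusted p under 0.05 and 0 with separate groups. That count was 0 without control tumor 3, control tumor 4, MEKi tumor 2 or MEKi tumor 4, 6 without control tumor 1 and 7 without MEKi tumor 3. C1qb differed by −2.32 (SE 0.87).

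Inflammasome genes sense damage and microbes and start pyroptosis. Of 10 measured members, 6 had separate groups, all lower, beside 2.11% of all genes. The median was −0.78, all 10 differences were negative and 6 had an unadjusted p under 0.05, beside 4.21% of all genes. Casp1, the protease that matures interleukin 1 beta, read 6.53, 6.89, 7.69 and 7.32 in controls and 5.55, 4.98, 5.45 and 5.83 in MEKi tumors (−1.66, SE 0.25). Its groups were well separate, and its adjusted p was 0.57 in limma. The related caspase Casp4, which senses lipopolysaccharide in the cytosol, differed by −1.21 (SE 0.28), the adaptor Pycard by −0.74 (SE 0.17) and the pore-forming Gsdmd by −0.73 (SE 0.23). Nod1, a sensor of bacterial peptidoglycan named after its value was seen, read 8.34, 8.68, 9.19 and 8.80 in controls and 7.67, 7.00, 7.46 and 7.79 in MEKi tumors (−1.27, SE 0.21). Caspase 12, chosen in the same way, read 7.28 to 8.76 in controls and 4.87 to 6.83 in MEKi tumors (Casp12, −1.96, SE 0.46). Cyba, a subunit of the NADPH oxidase of phagocytes, read 11.20 to 11.88 in controls and 10.29 to 10.87 in MEKi tumors (−0.96, SE 0.17).

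T cell transcripts were faint, and only 10 of 14 in the list were above background. The median was −0.12, with 3 lower at an unadjusted p under 0.05, and 6 without control tumor 1. Cd3g, which signals for the T cell receptor, read 4.48, 5.39, 7.38 and 5.93 in controls and 4.56, 3.76, 4.22 and 4.62 in MEKi tumors (−1.50, SE 0.52). Its MEKi mean of 4.29 was below background. Cd3d differed by −0.86 (SE 0.31) and Cd2, below background in both group means, by −0.66 (SE 0.22). The coreceptor Cd8a, at 5.72 to 6.16 in controls and 5.92 to 6.09 in MEKi tumors (0.06, SE 0.10), did not differ beyond its spread, but 2 of its 4 other probe sets were lower at an unadjusted p under 0.05, so its direction is uncertain. Foxp3, the factor of regulatory T cells, was below background in most tumors (−0.04, SE 0.08). The 7 regulatory T cell genes had a median of −0.10, with 2 lower at an unadjusted p under 0.05.

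Cytotoxic genes were low in all MEKi tumors and varied among controls. The 13 genes had a mean of 5.05, 5.17, 6.27 and 5.60 in controls and 4.96, 4.75, 4.91 and 4.92 in MEKi tumors, and a median difference of −0.53. At an unadjusted p under 0.05, 6 were lower, and 3 had separate groups. Without MEKi tumor 2 the first count was 3. Gzmb, the protease that cytotoxic lymphocytes inject into targets, read 5.93, 6.05, 8.87 and 7.22 in controls and 5.17, 4.91, 5.47 and 5.14 in MEKi tumors (−1.84, SE 0.56). Nkg7, a granule membrane protein, read 5.83, 6.17, 8.29 and 7.07 in controls and 5.57, 4.47, 4.68 and 5.74 in MEKi tumors (−1.72, SE 0.51). Control tumor 3 was the highest for both, and the groups were separate for both, narrowly for Nkg7. The 4 NK cell genes, all below background, had a median of −0.14 and 0 at an unadjusted p under 0.05.

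Checkpoint molecules and chemokines included some of the same interferon targets. Of 12 checkpoint genes, 5 were lower at an unadjusted p under 0.05, 4 had separate groups, and the median was −0.33. Without control tumor 3 the first of these counts was 3. Cd274, which encodes the ligand PD-L1, read 7.91, 8.50, 9.57 and 9.04 in controls and 7.57, 6.47, 6.88 and 7.77 in MEKi tumors (−1.58, SE 0.38). Its receptor Pdcd1 (−0.56, SE 0.18) and Ctla4 (−0.37, SE 0.11) had group means below background. Of 19 chemokines, 5 were lower at an unadjusted p under 0.05, 3 had separate groups, and the median was −0.63. Cxcl9, which attracts activated T cells through the receptor Cxcr3, read 9.74, 9.06, 11.51 and 11.50 in controls and 8.41, 6.42, 4.85 and 7.95 in MEKi tumors, 11.7-fold lower (−3.54, SE 0.82). MEKi tumor 3 was below background for it. Cxcl11, a ligand of the same receptor, differed by −0.63 (SE 0.20), with another probe set that did not point the same way, and Ccl5 by −1.45 (SE 0.39), while Cxcl10 overlapped (−1.08, SE 0.49), and MEKi tumor 1 read 10.93, above control tumors 1, 2 and 4. Without MEKi tumor 3 the count of chemokines at an unadjusted p under 0.05 was 10, and without control tumor 1 it was 8.

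The transcripts that ERK is known to induce had small differences of both signs. The cascade itself differed by −0.03 for Map2k1 (SE 0.12) and −0.03 for Map2k2 (SE 0.07), and the 13 measured cascade genes had a median of −0.02, between −0.13 and 0.17. Of the 11 feedback inhibitors 8 were higher on average and 3 lower, with a median of 0.14, and 0 had an unadjusted p under 0.05. Without control tumor 1, 1 was higher at that level, and without MEKi tumor 3, 2 were. Dusp6, the phosphatase that shuts off ERK, read 12.35, 12.05, 12.18 and 12 in controls and 12.33, 12.25, 11.65 and 12.16 in MEKi tumors (−0.05, SE 0.15). MEKi tumor 3 alone lay below the controls. Spry4 read 6.56 to 7.20 in controls and 6.55 to 7.62 in MEKi tumors (0.29, SE 0.22).

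ERK-induced transcription factors and targets, 19 genes, had a median of 0.09, with 2 higher and 0 lower at an unadjusted p under 0.05. The higher count was 0 without control tumor 4 or MEKi tumor 1, 2 without control tumor 3 and 1 without each of the others. The chromatin protein Hmga2 read 9.17, 8.28, 8.67 and 8.07 in controls and 9.64, 8.61, 10.06 and 9.16 in MEKi tumors (0.82, SE 0.32), and the ephrin receptor Epha2 differed by 0.34 (SE 0.14). The groups overlapped for both, and the Hmga2 probe set can bind other transcripts. Ccnd1, which drives entry into the cell cycle, read 10.72, 10.20, 11.16 and 10.93 in controls and 11.12, 10.94, 10.94 and 10.96 in MEKi tumors (0.24, SE 0.18). The ETS factors differed by 0.25 for Etv5 (SE 0.43) and 0.30 for Etv4 (SE 0.26), and Myc by 0.28 (SE 0.16). The groups overlapped for all of these.

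**Figure D4:**
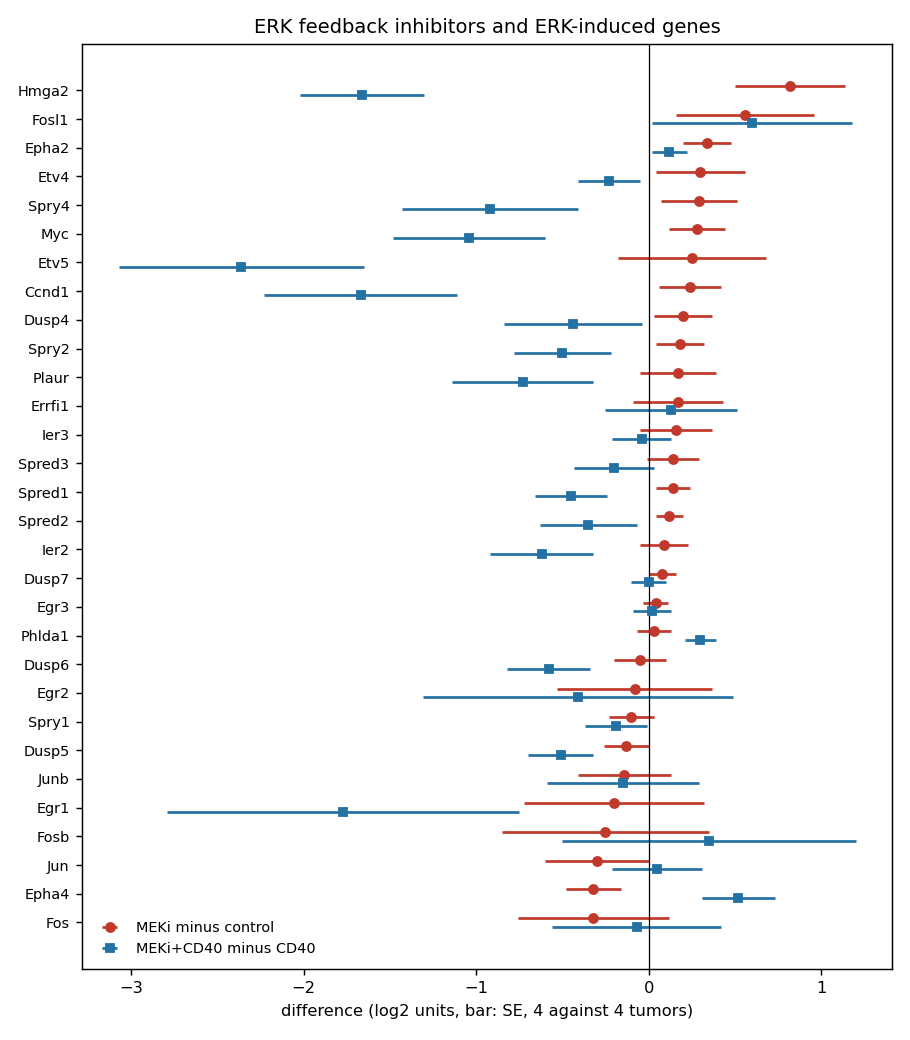
MEKi minus control (red circles) and MEKi+CD40 minus CD40 (blue squares), in log2 units with SE bars, for the feedback inhibitors and ERK-induced genes, 4 tumors in each group. The red values lie between −0.32 and 0.82, and Hmga2, Etv5, Ccnd1 and Spry4 have blue values between −2.36 and −0.92. Blue values are positive for 2 of the 11 feedback inhibitors and 7 of the 19 ERK-induced genes. Spry4 read 4.15 in MEKi+CD40 tumor 3, which carries skeletal muscle transcripts, against 6.3 to 6.71 in the other MEKi+CD40 tumors.

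Receptor tyrosine kinases, 21 genes, had a median of 0.10, with 3 higher and 1 lower at an unadjusted p under 0.05. The higher count was 2 without control tumor 1 or MEKi tumor 1 and 1 without each of the others, and the lower count was 1 or 2. The lower one was Axl, a receptor found on both melanoma cells and macrophages, which read 8.18, 8.70, 10.19 and 9.93 in controls and 8.02, 5.42, 7.23 and 7.81 in MEKi tumors (−2.13, SE 0.62). The groups were separate by a narrow margin, MEKi tumor 2 was the lowest, and the other probe set of Axl did not point the same way. Erbb2, a receptor of the EGF family, read 6.78 to 6.89 in controls and 6.92 to 7.19 in MEKi tumors (0.22, SE 0.08). Egfr differed by 0.18 (SE 0.07).

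The genes with separate groups differed by less in the higher direction than in the lower. The median difference over the 453 genes with all MEKi tumors above all controls was 0.22, and over the 383 in the other direction −0.37. Of the 383, 45 belonged to the interferon, MHC or inflammasome lists, and of the 453, 0 did. The lists were chosen with earlier results of these data known, so these counts describe and do not test. Itga4, the alpha 4 integrin chain with which cells bind Vcam1 and fibronectin, read 8.31, 8.40, 8.33 and 8.22 in controls and 9.21, 9.21, 9.11 and 8.98 in MEKi tumors. The difference was 0.81 (SE 0.08), 1.76-fold, with an adjusted p of 0.0538 in limma, and all 4 other probe sets of the gene pointed the same way. Its ligand Vcam1 differed by −1.91 (SE 0.73) and overlapped. Mocos, which activates molybdenum cofactor enzymes and was named after its value was seen, read 7.10, 7.14, 7.24 and 7.17 in controls and 6.30, 6.28, 6.07 and 6.39 in MEKi tumors. The difference was −0.90 (SE 0.08) with the same adjusted p. For both genes the gap between the groups was wider than the range within either group.

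Among the other genes the rule named as higher, the secreted kinase Pkdcc read 7.46 to 7.95 in controls and 8.10 to 8.99 in MEKi tumors (0.74, SE 0.19). The homeobox factor Hoxb9 read 5.60, 5.18, 5.73 and 5.55 in controls and 6.54, 5.95, 6.26 and 6.17 in MEKi tumors (0.72, SE 0.15), and the pioneer factor Foxa1 differed by 0.68 (SE 0.16). The RNA-binding protein Igf2bp1, which stabilises fetal and growth transcripts, read 6.95, 6.79, 6.55 and 6.57 in controls and 7.39, 7.07, 7.47 and 7.20 in MEKi tumors (0.57, SE 0.12). The groups were separate for all 4, narrowly for Foxa1, Igf2bp1 and Pkdcc. Lhfpl2 (0.67, SE 0.12), Fads6 (0.58, SE 0.10), Crim1 (0.56, SE 0.14), the alanine aminotransferase Gpt2 (0.53, SE 0.15), the synaptic adhesion protein Nlgn1 (0.52, SE 0.16), the chondroitin synthase Chsy3 (0.50, SE 0.12) and the synaptic priming factor Unc13b (0.50, SE 0.15) completed the set. The other probe set of Unc13b had the opposite sign. In the lower direction the cysteine protease Ctso, named after its value was seen, read 7.45, 8.02, 8.24 and 8.26 in controls and 6.26, 5.34, 6.13 and 6.72 in MEKi tumors (−1.88, SE 0.28), and its other probe set did not point the same way.

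Amino acid stress genes leaned upward. Of 18 members 16 were higher on average, with a median of 0.23, and 3 had an unadjusted p under 0.05, all higher. The cystine transporter Slc7a11 read 5.85, 4.95, 5.65 and 5.33 in controls and 6.15, 6.03, 5.80 and 5.82 in MEKi tumors (0.50, SE 0.18). Its partner Slc3a2, at 11.79 to 12.15 in controls and 12.21 to 12.35 in MEKi tumors, was the 1 member with separate groups (0.24, SE 0.09). The glutathione-degrading enzyme Chac1 differed by 0.32 (SE 0.14). The count at an unadjusted p under 0.05 was 0 without MEKi tumor 1, 1 without control tumor 2 or control tumor 4, and 6 without MEKi tumor 3.

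Genes of cell division had small differences. All 24 mitosis genes had a negative difference, with a median of −0.26, and 1 had an unadjusted p under 0.05 and separate groups. Without control tumor 2, which had the lowest list mean of the controls, 14 had an unadjusted p under 0.05 and 9 had separate groups. Leaving out the lowest control raises the control mean by construction, and the share over all genes is then not given. Without any other tumor the first count was 1 or 2. The 1 gene was Ccnb2, the B-type cyclin, which read 10.79, 10.34, 10.47 and 10.43 in controls and 10.26, 10.18, 9.68 and 9.87 in MEKi tumors (−0.51, SE 0.15). The list mean, however, overlapped broadly, at 9.66 to 10.51 in controls and 9.46 to 10.24 in MEKi tumors, and the median went from −0.44 without control tumor 2 to −0.12 without MEKi tumor 4. The 20 replication genes had a median of −0.06 and the 19 ribosome biogenesis genes 0.06, with 0 at an unadjusted p under 0.05 in both. Without control tumor 2 the replication median was −0.256, with 3 genes lower at that level, and without control tumor 1 it was 0.03. Without MEKi tumor 3 the ribosome biogenesis median was 0.128, with 2 genes higher, and without control tumor 2 it was −0.008. Mki67 differed by −0.08 (SE 0.24). Of 15 CDK inhibitors and p53 targets 2 were lower at an unadjusted p under 0.05, with a median of −0.16, and 1 had separate groups. Without control tumor 1 both counts were 6, and without control tumors 2, 3 or 4 or MEKi tumor 3 the first was 1. Cdkn1a differed by 0.02 (SE 0.30). In the BCL2 family, 13 genes with a median of −0.06, 2 were lower, among them Bcl2l11, the death activator BIM that ERK keeps low, at 8.36 to 8.82 in controls and 7.87 to 8.21 in MEKi tumors (−0.54, SE 0.13). The 11 death receptor and necroptosis genes had a median of −0.17, and 2 were lower, among them Mlkl, the pore former of necroptosis (−0.65, SE 0.19). With 1 tumor left out, 1 to 4 BCL2 family genes and 1 to 3 death receptor and necroptosis genes were lower at that level.

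Pigment and lineage genes of the melanoma cells had differences within the spread of the tumors. The 14 melanosome genes had a median of 0.00 and the 15 lineage factors −0.02, and 0 had an unadjusted p under 0.05 in either list. Mitf, the master factor of melanocytes, read 12.86 to 13.39 in controls and 12.72 to 13.27 in MEKi tumors (−0.03, SE 0.16). In cholesterol synthesis 0 of 16 genes had a positive difference, the median was −0.15 and 2 were lower at an unadjusted p under 0.05, Mvd (−0.57, SE 0.20) and Fdft1 (−0.40, SE 0.17). Without MEKi tumor 1 the median was −0.22 with 4 lower, without MEKi tumor 3 it was −0.037 with 1 lower, and the count was also 1 without MEKi tumors 2 or 4 or control tumors 2, 3 or 4. In hypoxia and glycolysis 17 of 18 were positive, with a median of 0.11 and 1 higher at an unadjusted p under 0.05, the vessel growth factor Vegfa (0.51, SE 0.21). That median was 0.028 without MEKi tumor 3 and 0.19 without MEKi tumor 2. The fibroblast median was 0.56 with 0 of 17 at an unadjusted p under 0.05, and it was −0.07 without MEKi tumor 3.

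The remaining lists had medians between −0.09 and 0.20 and at most 3 members in 1 direction at an unadjusted p under 0.05. Lower members at that level numbered 3 of 15 NF-kB targets (median −0.09), 1 of 15 TGF-beta genes (0.00), 1 of 11 WNT and Notch targets (0.02), 1 of 20 mitochondrial ribosomal proteins (−0.05), 1 of 11 dendritic cell genes (−0.03, with 1 higher) and 2 of 7 adipocyte genes (0.08). Higher members numbered 1 of 15 clock genes (0.08), 1 of 15 endothelial genes (−0.09), 1 of 14 skeletal muscle genes (0.20), 1 of 4 erythroid genes (0.05) and 2 of 18 adhesion genes (0.08, with 3 lower). None stood at that level among oxidative phosphorylation (−0.02), fatty acid synthesis (0.06), unfolded protein (−0.02), heat shock (−0.04), lysosome (0.00), oxidative stress (0.02) and glucocorticoid response (0.02) genes, nor among B cell (0.06), neutrophil (−0.01), mast cell (0.04), pericyte (−0.02) and keratinocyte (0.05) genes. The NF-kB count was 6 without MEKi tumor 3 and 0 without control tumor 3, control tumor 4 or MEKi tumor 2, with a median between −0.288 and −0.049. The lower adhesion count was 0 without the same 3 tumors. Each of the other counts of these lists stayed between 0 and 4 with 1 tumor left out. The dendritic cell integrin Itgax was the lower member of its list, at 6.11 to 7.13 in controls and 5.29 to 5.89 in MEKi tumors (−0.94, SE 0.25). Lpl, which splits blood triglycerides in fat and in macrophages, differed by −1.88 (SE 0.49).

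The other 8 tumors, which share no sample with the comparison above, all had the CD40 agonist antibody. The same inhibitor was given on top of it in 4 of them (MEKi+CD40), and the vehicle in the other 4 (CD40). There, MEKi+CD40 against CD40, 573 genes (3.15%) were higher and 598 (3.29%) lower at an adjusted p under 0.05 in limma. CD40 tumor 3 and MEKi+CD40 tumors 1 and 3 carry skeletal muscle transcripts, and without them 1526 probe sets in place of 2133 passed. Of the 2133, 1027 (2.28%) were higher and 1106 (2.46%) lower. Of the 383 genes with separate and lower MEKi tumors, 281 (73.4%) were also lower on average under CD40, where 41.5% of all genes were. Groups were separate and lower in both settings for 38 genes, which is 9.92% of the 383 and 2.55% of the 1491 under CD40, where 8.20% of all genes had separate and lower groups. In the higher direction the shared number was 61, or 13.5% of the 453 and 3.50% of the 1742, where the share of all genes was 9.58%.

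The interferon and MHC class I genes had smaller differences under the agonist in most cases. Over the 62 distinct genes of these lists, 60 had negative differences without CD40 and 53 with it, and for 48 the difference was less negative with it. The interferon gamma median was −0.87 with CD40 beside −2.04 without, the MHC class I median −0.54 beside −1.38 and the MHC class II median −0.78 beside −2.17. Psmb8 differed by −1.44 (SE 0.64) with CD40 beside −3.72 without, and the test of the difference between the effects gave 2.28 (SE 1.02, adjusted p = 0.325 in limma). Gbp6 gave −0.69 with CD40, and the difference of effects was 3.20 (SE 1.32, adjusted p = 0.273). Of the 62 genes 18 had a difference of effects at an unadjusted p under 0.05, beside 17.6% of all genes, and 0 passed after adjustment, beside 0.0%. The inhibitor is not shown to act differently on these genes in the presence of the agonist.

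Cell division genes were given the same test. Of 24 mitosis genes 20 were lower at an adjusted p under 0.05 with CD40, with a median of −1.0 beside −0.26 without. Of 20 replication genes it was 16, with −1.42 beside −0.06. The difference of effects had an unadjusted p under 0.05 for 15 of the 24 and 20 of the 20, beside 17.6% of all genes, and 0 passed after adjustment, so these effects are not shown to differ either. Muscle and fibroblast genes differed in this contrast too, with median differences of 2.14 and 0.94, and their part in the result was not tested. The replication mean was lowest in MEKi+CD40 tumor 3, at 8.00. In the tumors without muscle transcripts it was 10.31, 10.26 and 10.31 in CD40 tumors 1, 2 and 4 and 9.36 and 8.58 in MEKi+CD40 tumors 2 and 4, and the mitosis mean was 10.22, 10.11 and 10.10 beside 9.52 and 9.16. Ribosome biogenesis genes had a median of −0.73 beside 0.06, and amino acid stress genes −0.76 beside 0.23. Igf2bp1 went from 0.57 without CD40 to −0.78 (SE 0.16) with it, the difference of effects with the smallest p among the named genes (−1.34, SE 0.20, unadjusted p = 9.87e-06, adjusted p = 0.0971). Hmga2 went from 0.82 to −1.66 (SE 0.36), with the same adjusted p for the difference of effects. Ccnd1 differed by −1.67 (SE 0.56, adjusted p = 0.132) with CD40 and Etv5 by −2.36 (SE 0.71, adjusted p = 0.098). Itga4 did not follow, at −0.19 (SE 0.33) with CD40 beside 0.81 without, and the difference of effects was −1.0 (SE 0.36, adjusted p = 0.201).

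**Figure D5:**
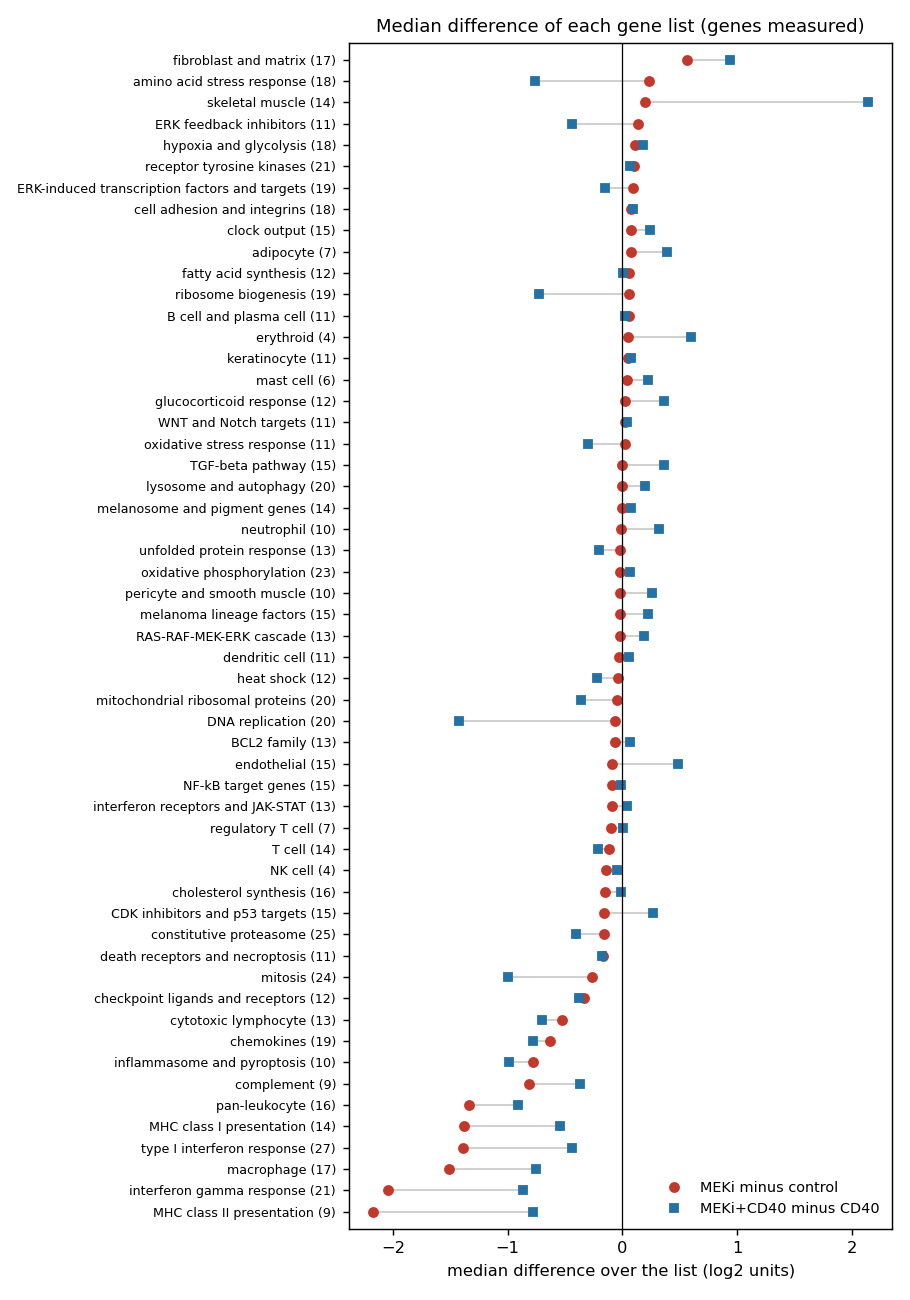
Median difference in log2 units over the members of each of 55 gene lists, with the number of measured genes in brackets, for MEKi minus control (red circles) and MEKi+CD40 minus CD40 (blue squares). The lowest red medians are those of MHC class II, −2.17, and the interferon gamma response, −2.04. DNA replication went from −0.06 without to −1.42 with CD40, and skeletal muscle from 0.20 to 2.14 where 3 tumors carried muscle transcripts.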

How the data were processed

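RNA from each tumor was hybridised to an Affymetrix mouse array. The log2 values used here are as deposited: the authors made them by RMA in the software Chipster (version not given in the sources used here). RMA corrects background, equalises the distributions of the arrays and sums the probes of a probe set. RMA compresses dim signals, so that differences near background are understated. The 64 array controls were left out. Of the other 45037 probe sets, 34945 had 1 gene symbol, 932 several and 9160 none, and the probe set brightest over all tumors stood for each of 18193 genes.

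MEKi and control tumors were fitted alone with limma 3.58.1 in R 4.3.3 (lmFit and eBayes, Benjamini-Hochberg adjustment over all probe sets), and the difference of effects was fitted over all 4 groups. Tumors were grouped by their labels, and p-values measure the spread between tumors of separate mice. Summaries used pandas 2.3.3 and numpy 2.4.6 under Python 3.11.15, and figures were drawn with matplotlib 3.10.9. On simulated data with 45037 probe sets for this comparison, 24% of differences of 0.5, 82% of 1, 96% of 2 and 98% of 3 were recovered at an adjusted p under 0.05, with 3 false calls. The changed probe sets were drawn at random and their noise was independent. These shares therefore do not hold for genes with a wide spread, such as Gbp6, with an SE of 0.97 beside a median of 0.103.

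The members and lists were chosen with earlier results of these data known. Named genes were up to 12 per direction with the largest differences at an unadjusted p under 0.01 and separate groups, the members with the smallest p in each list (up to 4), and fixed pathway genes. Mocos, Casp12, Ctso, Nod1, Cyba, H2-M3, H2-K1, H2-D1, B2m, Tap2, Irf8, Cxcl10, Psmc4, Calr, Canx, Pdia3 and Ackr3 were chosen after their values were seen. Promoters came from RefSeq (GRCm38.p6). The alternatives were a background filter, 1 probe set per gene, the mean of all probe sets, cyclic loess, median centring, array weights, a trended robust fit, all 16 tumors, a replicate block and leaving out each tumor.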

Additional observations from a re-analysis of the deposited data

Results flagged for a closer look

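Of 228 groups of 4 values examined, 9 had 1 tumor that stood far from the other 3, and chance gives about 1 in 20 groups. The mean of the receptor tyrosine kinase list was 7.40 in MEKi tumor 2, the lowest of its group, where the others lay at 7.57 to 7.59. The constitutive proteasome mean was 11.47 in MEKi tumor 3, against 11.61 to 11.62 in the others. The B cell and plasma cell mean was 5.29 in MEKi tumor 3, against 5.16 to 5.17. The pericyte and smooth muscle mean was 6.86 in control tumor 3, against 7.40 to 7.50, the clock output mean 7.81 in control tumor 2, against 7.57 to 7.60, and the glucocorticoid response mean 9.42 in control tumor 4, against 9.03 to 9.05. Among single genes, the ETS factor Etv4 read 7.11 in MEKi tumor 1, against 5.99 to 6.09 in the others, Ccnd1 read 11.12 in MEKi tumor 1, against 10.94 to 10.96, and Mitf read 13.39 in control tumor 4, against 12.86 to 12.91.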

How the results depend on the processing

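Counts at an adjusted p under 0.05 went from 0 to 1 higher (Itga4) and 1 lower (Mocos) with 1 probe set per gene (adjusted p = 0.0247 for both in limma), with cyclic loess (0.0454 for both) and with array weights (0.0432 and 0.0359). At an unadjusted p under 0.05, 906 probe sets were higher with the background filter, and 704 were higher and 760 lower with 1 probe set per gene, where fewer probe sets were tested. Leaving out each tumor in turn gave 1159 to 1743 higher and 1155 to 1780 lower, and 0 to 0 after adjustment. The adipocyte median was −0.578 with the background filter in place of 0.08, since it was then taken only over members that passed the filter. Of the 7 measured members, 4 had a group mean above background. Of 933 recomputed list medians 932 moved by less than the spread between tumors. Of 4482 recomputed differences over 266 genes, 7 changed sign where the main difference was larger than its SE. These were Trpm1 (0.022 without MEKi tumor 3, and −0.288 to 0.022 over the tumors left out) and, with the mean of all probe sets, Ighm (−0.173), Tpsb2 (−0.01), Myh11 (0.003), Mrps5 (0.041), Dnajc3 (0.062) and Lamp2 (−0.014). Sign changes of smaller differences were not counted. Such genes included Cdkn1a (−0.232 to 0.231 over the alternatives), Mki67 (−0.269 to 0.127) and Dusp6 (−0.125 to 0.102).

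The replicate numbers did not pair the tumors: deviations of tumors with the same number correlated at −0.015, 0.025, 0.024 and −0.273. With the replicate number as a block, 1118 probe sets were higher and 1456 lower at an unadjusted p under 0.05, and 0 passed after adjustment.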
